A study of Mus musculus with 4 samples.

Results

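The genes of the T cell antigen receptor complex were followed through tumour single-cell data: the CD3 chains Cd3d, Cd3e, Cd3g and Cd247, the receptor constant genes Trac, Trbc1, Trbc2, Trdc and Tcrg-C1, and Lat, the adaptor that the receptor uses to signal. They were chosen by symbol, and all 10 were present among the 55450 genes of the table. Their unique molecular identifiers (UMIs, tags that let molecules be counted once) were summed over 32133 of 33064 barcodes, those with at least 300 genes and at most 15% mitochondrial UMIs.

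The cells came from tumours of 4T1, a mouse mammary carcinoma line. Each host, a female BALB/c mouse aged 6 to 8 weeks, received 1000000 cells in the flank. No other genotype or transgene is named. Of the 4 samples, 2 are recorded as PBS and 1 as TIOs, the light-activated oncolytic system of the study, and the records of 1 sample name both, so that it was left without a group. In all 4 samples an intravenous injection on day 7 preceded 980 nm light at 1.0 W per square cm for 5 min daily from day 8 to day 10, and tumours were taken on day 13. The PBS hosts therefore also received the light. Cells were sorted for CD45, the product of Ptprc found on leucocytes.

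The barcodes carry 4 library suffixes, and nothing links a suffix to a sample. The matrix was therefore read as 1 pooled sample, without a comparison of treatments and without p-values. Libraries 1 to 4 are given one by one, with their treatment unknown, and intervals cover counting error only, not differences between mice. The libraries held 69255999 to 108646352 UMIs over their barcodes and 6783 to 8889 kept cells, and 95 of 32038 barcode strings (0.297%) occurred in 2 or more of them. Library 1 stood apart: it held 4784 of the 5111 tumour or epithelial cells, 209 of the 228 CD8 T cells and only 167 of the 3137 fibroblasts.

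An αβ T cell reads antigen with a heterodimer of an α and a β chain, and a γδ T cell with a γ and a δ chain. Each chain is built by joining a variable part to a constant part. None of these chains can signal alone. They sit in the membrane with CD3 chains, which are γ, δ and ε in αβ T cells, and with a dimer of ζ, encoded by Cd247. The cytoplasmic motifs of ζ are phosphorylated by Lck and then bind Zap70, which phosphorylates Lat. The ζ chain also serves activating receptors of natural killer (NK) cells, and Lat also serves the IgE receptor of mast cells and basophils.

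Cells were sorted into gates by marker panels that held none of the 10 genes. A T cell needed UMIs of 2 or more of Cd5, Cd6, Cd28, Icos, Trat1, Ubash3a, Themis, Bcl11b, Cd40lg and Ms4a4b, and an NK cell 2 or more of Ncr1, Klrb1c, Klrb1f, Klre1, Klri2, Eomes, Klra4 and Klra7. This gave 946 T cells (332, 65, 423 and 126 in libraries 1 to 4), 94 NK cells (33, 1, 15 and 45) and 142 cells that passed both gates and were kept apart. A γδ gate on Cd163l1, Sox13, Blk, Il23r, Trdv4 and Tcrg-V6 gave 33 cells, and a B cell gate gave 26. Fibroblasts needed at least 10 Col1a1 UMIs, these being at least 0.1% of the cell's UMIs, and 2 or more of Dcn, Lum, Pdgfra and Pdgfrb. Among genes that no panel held, Cd8a was seen in 23.2%, Cd4 in 38.3% and Foxp3 in 13.5% of T cells, beside 0, 1 and 0 of 94 NK cells. Ptprc was seen in 88.1% of T cells and 97.9% of NK cells. Fibroblasts, which a CD45 sort should leave out, had a Ptprc UMI in 29.8% of cells.

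CD3 transcripts marked the T gate. At least 1 UMI of Cd3d, Cd3e or Cd3g was present in 894 of 946 T cells, or 94.5% (exact 95% binomial interval 92.9 to 95.9). The share was 96.4%, 95.4%, 93.4% and 92.9% in libraries 1 to 4. It reached 98.5% (97.2 to 99.3) in 647 T cells that fell into a CD8, a CD4 or a Foxp3 subset by their UMIs of Cd8a, Cd8b1, Cd4 and Foxp3, and was 85.4% (80.7 to 89.2) in the 287 with a UMI of none of these genes. The remaining 12 cells, with a UMI of Cd8a or Cd8b1 beside one of Cd4 or Foxp3, were in neither count. T cells held a median of 3666 UMIs. Neutrophils, which should lack CD3, held a median of 1983 UMIs and had a CD3 UMI in 6.77% of cells (6.24 to 7.34). When every cell was thinned to 1000 UMIs, the shares were 85.1% in T cells and 2.71% in neutrophils. In the 26 B cells none of the 10 genes had a UMI, which allows a share of up to 11.5%.

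Levels are given as counts per 1000000 (CPM) of the UMIs summed over a gate, and capture differs between genes, so that levels are compared for 1 gene between cells and not between genes. Cd3d, the CD3 δ chain, was at 729.6, 631, 716 and 730.0 CPM in the T cells of libraries 1 to 4. Cd3e, the ε chain, was at 645, 573, 603 and 626 CPM. Both were nearly level across the libraries. Cd3g, the γ chain, was at 1551, 901, 838 and 1192 CPM, so that libraries 1 and 4 were high and libraries 2 and 3 low, and the Poisson intervals of the high libraries lay above those of the low ones. Cd247 was at 68.2, 82.6, 121 and 118 CPM, lowest in library 1, and was seen in 32.5% of T cells. Lat was at 307, 435, 382 and 427 CPM and in 70.0% of cells, again lowest in library 1. A T cell held UMIs of a median of 6.0 of the 10 genes, and 11 of 946 held none.

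**Figure D1:**
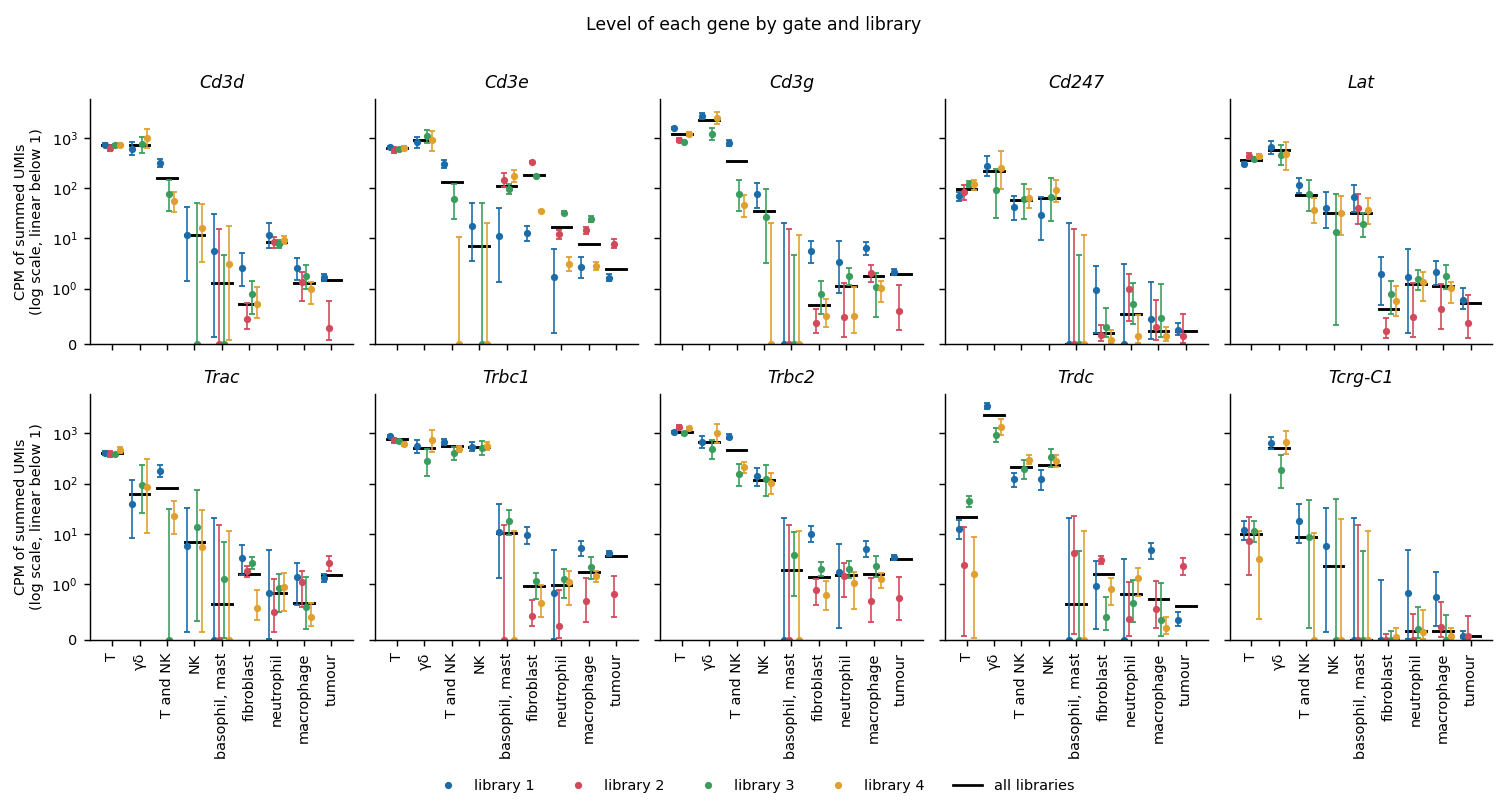
CPM of each of the 10 genes (vertical axis, log scale, linear below 1) in 9 gates (horizontal axis), with 1 point per library of at least 5 cells, exact 95% Poisson intervals as bars and the value over all libraries as a black line. Cd3d drops from 716 CPM in T cells to 0.722 CPM in fibroblasts, whereas Cd3e stays at 179 CPM there, and Trbc1 and Trdc stay high in NK cells.

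Against fibroblasts, 10 of 10 genes were at least 2-fold higher in T cells after 5 CPM were added to each side, where 10.3% of all 17951 genes tested were. The median log2 ratio of the 10 genes was 6.00, beside -0.01 over all genes tested. Against NK cells, 7 of 10 were at least 2-fold higher in T cells (background 9.37% of 10601 genes) and 1, Trdc, was lower (background 2.91%), with a median log2 ratio of 3.22 beside 0.07 over all genes tested. A gene was tested with 20 or more UMIs over both gates together, so that it could pass through T cells alone. Cd3d, Cd3g and Lat did so, with 5, 15 and 14 UMIs in NK cells. So did Cd3e, Trac and Tcrg-C1, each with fewer UMIs there than Cd3d. Of the 7 genes called higher than in NK cells, only Trbc2, with 52 UMIs, did not depend on T cells to be tested. Against fibroblasts, Cd247 and Tcrg-C1 passed through T cells alone, with 19 and 2 UMIs in fibroblasts. These counts are descriptions of the levels and not a test.

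Of the CD3 genes, 3 lie side by side on chromosome 9 (GRCm38): Cd3g at chr9:44969572-44980431 on the minus strand, Cd3d at chr9:44981786-44987339 on the plus strand and Cd3e at chr9:44998740-45009627 on the minus strand. The starts of Cd3g and Cd3d are 1355 bases apart and face away from each other, and the starts of Cd3d and Cd3e are 27841 bases apart. Their promoter windows (250 bases before to 50 bases after the start, from RefSeq on GRCm38.p6, 5′ to 3′ on the strand of each gene) are shown because the 3 genes share T cells while only Cd3e was also counted in many fibroblasts, as described further on. Capitals mark AGGAAG, the core read by ETS factors, or its reverse complement CTTCCT. The windows are Cd3g chr9:44980382-44980681 (minus strand), Cd3d chr9:44981536-44981835 (plus strand) and Cd3e chr9:45009562-45009861 (minus strand).
Cd3g promoter: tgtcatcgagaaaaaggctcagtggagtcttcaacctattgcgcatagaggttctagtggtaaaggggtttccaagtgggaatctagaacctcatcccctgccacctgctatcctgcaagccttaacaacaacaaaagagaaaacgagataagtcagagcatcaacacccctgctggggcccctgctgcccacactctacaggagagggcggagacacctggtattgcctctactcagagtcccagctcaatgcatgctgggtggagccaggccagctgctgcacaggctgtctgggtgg
Cd3d promoter: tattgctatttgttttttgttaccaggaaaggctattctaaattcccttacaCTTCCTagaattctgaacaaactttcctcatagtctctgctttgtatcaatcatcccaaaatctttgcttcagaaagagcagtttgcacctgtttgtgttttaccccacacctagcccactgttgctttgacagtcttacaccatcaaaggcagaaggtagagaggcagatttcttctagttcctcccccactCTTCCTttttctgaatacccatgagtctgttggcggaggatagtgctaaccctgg
Cd3e promoter: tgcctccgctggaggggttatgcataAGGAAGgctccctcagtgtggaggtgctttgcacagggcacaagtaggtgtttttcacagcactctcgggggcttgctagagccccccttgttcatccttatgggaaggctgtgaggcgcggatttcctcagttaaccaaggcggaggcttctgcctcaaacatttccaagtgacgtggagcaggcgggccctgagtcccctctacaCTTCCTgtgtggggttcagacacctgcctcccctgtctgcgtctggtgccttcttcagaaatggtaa

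On both strands, the ETS letters AGGAAG occurred 2 times in the Cd3e window, 2 times in the Cd3d window and not in the Cd3g window, and 35.4% of all 32851 promoter windows hold them. The E-box letters CANNTG occurred 2, 1 and 4 times in Cd3e, Cd3d and Cd3g (72.3% of all windows). RUNX letters (TGTGGT, 16.8% of all windows), AP-1 letters (TGANTCA, 7.81%) and TATAAA (13.6%) occurred in none of the 3. A match describes the letters and not binding, and 5 of the 10 genes had a window in the table.

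Within the T gate, 228 cells were CD8 (Cd8a or Cd8b1 without Cd4 and Foxp3), 297 were CD4 Foxp3-negative and 122 carried Foxp3, the factor of regulatory T cells, without Cd8a or Cd8b1. Between CD8 and CD4 Foxp3-negative cells, 1 of 9 genes tested was at least 2-fold higher (Tcrg-C1 over all libraries, though not within library 1, as given further on, background 4.37% of 8929 genes) and 0 of 9 at least 2-fold lower (background 10.1%). Cd3g was at 1904 CPM in CD8 and 1074 CPM in CD4 cells, a log2 ratio of 0.83 (95% interval 0.73 to 0.92). Inside library 1, which held most CD8 cells, the levels were 1953 and 859 CPM, a log2 ratio of 1.18 (0.90 to 1.47). Without library 1, 19 CD8 cells were left and the log2 ratio was -0.19 (-0.57 to 0.19), and the interval spanned 0.

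Over all libraries, Trbc1 and Cd3e were also higher in CD8 cells, and Lat and Cd247 were lower. Library 1 held 209 of the 228 CD8 cells, and these ratios were not recomputed without it. Whether they hold in the other libraries was therefore not tested. Cd3d was level between CD8 and CD4 cells (813 and 805 CPM, log2 ratio 0.02, -0.11 to 0.14), and so was Trac (443 and 465 CPM, -0.07, -0.23 to 0.09). Trbc1 was at 1055 and 732 CPM (0.53, 0.41 to 0.64), and in library 1 the levels were 1084 and 384 CPM. Cd3e showed 0.22 (0.10 to 0.35) over all libraries and 0.93 (0.51 to 1.34) in library 1. Lat was lower in CD8 cells, at 299 beside 430.4 CPM (log2 ratio -0.52, -0.71 to -0.34) and in library 1 at 298 beside 467 CPM. Cd247 was also lower, at 74.2 beside 110.1 CPM (-0.57, -0.94 to -0.20), with an interval that spans 0 inside library 1 (-1.36 to 0.38).

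Over all libraries, Foxp3 cells were slightly lower than CD4 Foxp3-negative cells for some of the chains, though not in every library. Cd3g was at 863 beside 1074 CPM (log2 ratio -0.32, -0.46 to -0.17), Cd3d at 674 beside 805 CPM (-0.26, -0.42 to -0.09) and Trbc1 at 605 beside 732 CPM (-0.27, -0.45 to -0.10). Trbc2 was at 1042 beside 1176 CPM (-0.17, -0.31 to -0.04). Trac was at 475 beside 465 CPM (0.03, -0.17 to 0.24). The intervals also spanned 0 for Cd3e (-0.12, -0.30 to 0.06), Cd247 (-0.22, -0.67 to 0.23) and Lat (-0.19, -0.42 to 0.03). Within library 3, which held 68 of the 122 Foxp3 cells, Cd3g kept a ratio below 0 (-0.30, -0.52 to -0.07). So did Trbc2 (-0.24, -0.45 to -0.02), and Lat was below 0 there (-0.41, -0.76 to -0.05). The intervals for Cd3d and Trbc1 spanned 0 in library 3. In library 1 the intervals of Cd3g (-0.50 to 0.30), Cd3d (-0.65 to 0.20) and Trbc1 (-0.31 to 0.82) all spanned 0. Those of Trbc2 (-0.46 to 0.30) and Lat (-0.99 to 0.16) did too. Cd3d, Cd3e and Cd3g together were at 2059, 1848, 2071 and 3549 CPM in the Foxp3 cells of libraries 1 to 4. In CD4 Foxp3-negative cells they were at 2060.1, 2496, 2355 and 3037 CPM.

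CD3 levels were lower in the T cells with a UMI of Mki67 or Top2a, genes of dividing cells. There were 237 such cells, with a median of 5330.0 UMIs, beside 709 others with 3326.0. Cd3d was at 553 beside 826 CPM (log2 ratio -0.58, -0.69 to -0.47), Cd3e at 488 beside 709.8 CPM (-0.54, -0.66 to -0.43), Cd3g at 988 beside 1298 CPM (-0.39, -0.48 to -0.31) and Cd247 at 71.3 beside 114 CPM (-0.67, -0.97 to -0.38). In each of libraries 1, 3 and 4, the ratios of Cd3d, Cd3e and Cd3g lay below 0 with their whole intervals. Library 2, with 18 such cells, was not compared. Over all libraries, the constant genes differed less: Trac -0.23 (-0.37 to -0.09), Trbc2 -0.18 (-0.27 to -0.10) and Trbc1 -0.09 (-0.19 to 0.01). In libraries 1, 3 and 4, Trac was at -0.29, -0.36 and -0.16 and Trbc2 at -0.12, -0.63 and -0.05. Trbc1 was at 0.00, -0.11 and -0.79 there. In library 4 Cd3d was at -0.55 and in library 3 Cd3g at -0.65, so that the contrast with CD3 did not hold for every gene in every library. The part of the larger UMI content of these cells in the ratios was not tested.

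**Figure D2:**
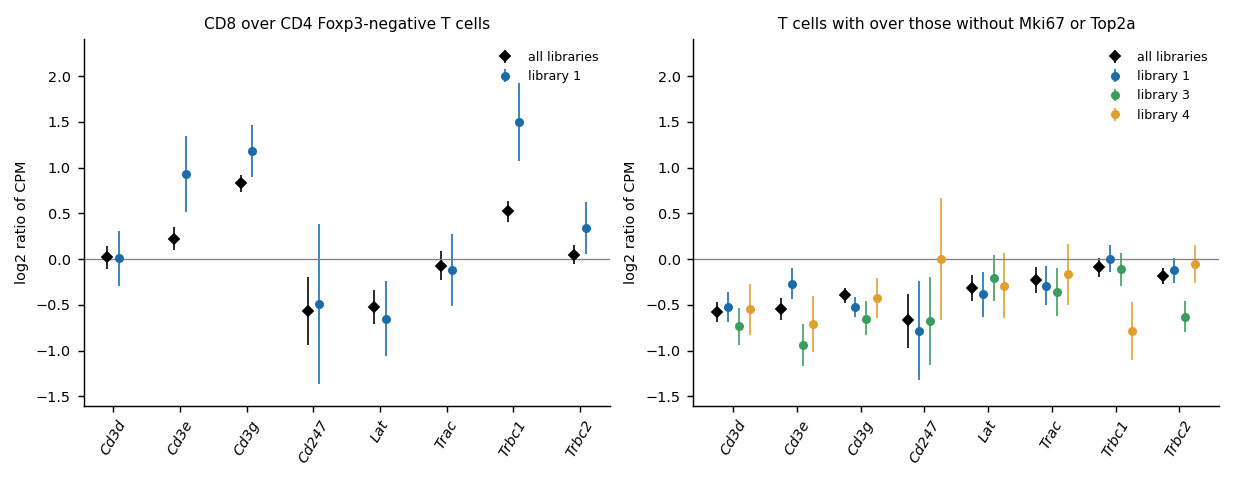
Log2 ratio of CPM (vertical axis) for 8 genes (horizontal axis) between CD8 and CD4 Foxp3-negative T cells (left) and between T cells with and without Mki67 or Top2a (right), over all libraries (diamonds) and in single libraries (circles), with 95% counting intervals as bars. Cd3e, Cd3g and Trbc1 lie above 0 on the left, higher in library 1 than over all libraries, and Cd3d, Cd3e and Cd3g lie below 0 on the right in every library drawn.

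In the 209 CD8 cells of library 1, 166 had a UMI of Pdcd1, which encodes the inhibitory receptor PD-1. Cd3g was at 2066 CPM in these and 1343 CPM in the 43 others (log2 ratio 0.62, 0.43 to 0.81). Cd3d was at 846 beside 592 CPM (0.52, 0.23 to 0.81), Cd3e at 787 beside 614 CPM (0.36, 0.07 to 0.65) and Trbc1 at 1116 beside 915 CPM (0.29, 0.05 to 0.52). Trac (435 beside 504 CPM, -0.21, -0.54 to 0.11) and Trbc2 (1188 beside 1211 CPM, -0.03, -0.24 to 0.18) had intervals that spanned 0. Cells with Pdcd1 were deeper, with a median of 4747.0 UMIs beside 3469.0, and the part of depth in the split was not tested.

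The αβ constant genes were as widespread in T cells as CD3. A UMI of Trac, Trbc1 or Trbc2 was present in 95.1% of T cells (93.6 to 96.4), with 96.1%, 95.4%, 94.6% and 94.4% in libraries 1 to 4, beside 1.28% of neutrophils (1.05 to 1.55). Trac (chr14:54220521-54224206) was at 407, 389, 384 and 467 CPM in libraries 1 to 4, and the intervals overlapped except between libraries 3 and 4. Trbc1 was at 888, 731, 697 and 621 CPM and Trbc2 at 1050.4, 1336, 994 and 1269 CPM. The libraries thus ranked differently for the β constant genes, with library 1 high for Trbc1 and libraries 2 and 4 high for Trbc2.

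Mice have a pair of β constant genes, Trbc1 at chr6:41538218-41539881 and Trbc2 at chr6:41546730-41548352, both on the plus strand of GRCm38, and a productive β chain uses one or the other. Their transcripts (GENCODE vM21) are near copies. Over 518 coding bases they differ at 23 positions (95.6% identical), whereas after the coding part, in stretches of 219 and 174 bases, 55.1% of the aligned bases are identical. The stretch with most differences in the coding part is shown because reads there can tell the genes apart. It spans coding positions 400 to 489, with 14 differences in capitals.
Trbc1 chr6:41539235-41539324: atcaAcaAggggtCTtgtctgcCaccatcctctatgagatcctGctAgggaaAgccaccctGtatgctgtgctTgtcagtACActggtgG
Trbc2 chr6:41547778-41547867: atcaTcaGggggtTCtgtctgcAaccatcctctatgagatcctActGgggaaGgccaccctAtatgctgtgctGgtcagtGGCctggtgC

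Counted from 1 at the first annotated coding base, with the Trbc1 base first, the differences there begin with A404T, A407G, C413T, T414C and C422A. Outside such places the genes share runs of sequence: 203 of the 648 windows of 90 bases in Trbc1 (31.3%) and of the 603 in Trbc2 (33.7%) match the other gene exactly, so that the split of UMIs between the pair is uncertain where reads fall there.

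Trbc1 took 41.3% of the Trbc UMIs of T cells (40.2 to 42.4), with 45.8%, 35.4%, 41.2% and 32.9% in libraries 1 to 4. It took 46.5% in CD8, 38.4% in CD4 Foxp3-negative and 36.7% in Foxp3 cells. Of the 228 CD8 cells, 209 were in library 1, where the share over all T cells was also highest. Of 619 T cells with at least 4 Trbc UMIs, 428 held both genes (69.1%, 65.3 to 72.8), 26 held Trbc1 alone and 165 Trbc2 alone. For comparison, of 591 cells with at least 4 UMIs of Cd3d and Cd3e together, genes that αβ T cells use jointly, 95.1% held both (93.0 to 96.7).

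Per cell, the β constant genes were split more unevenly than the CD3 pair. One gene took at least 90% of the UMIs in 36.7% of cells for Trbc and in 5.92% for Cd3d and Cd3e. In 187 of the 619 cells (30.2%) Trbc1 took under 10% of the Trbc UMIs, and in 36 cells (5.82%) it took 90% or more. The remaining cells lay in between, with a second peak of 87 cells (14.1%) from 50% to under 60%. Both genes were held by 83.2% of CD8 cells with 4 or more Trbc UMIs, 64.0% of CD4 Foxp3-negative and 53.2% of Foxp3 cells.

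**Figure D3:**
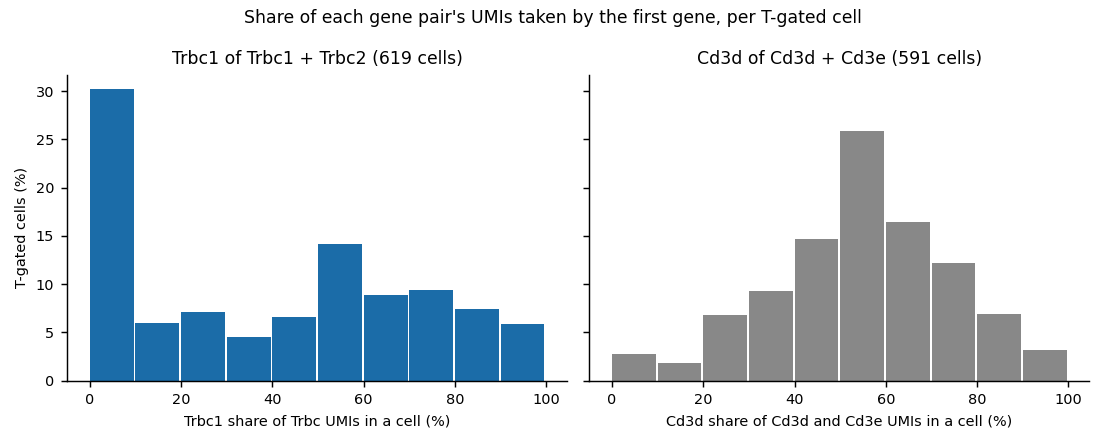
Percent of T cells (vertical axis) by the share of a gene pair's UMIs taken by the first gene (horizontal axis, steps of 10 percentage points), for Trbc1 of Trbc1 and Trbc2 in 619 cells (left) and Cd3d of Cd3d and Cd3e in 591 cells (right). The left panel has its tallest bar, 30.2%, under 10%, and the right panel has its tallest bar, 25.9%, from 50% to under 60%.

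NK cells, which do not use a rearranged antigen receptor, held few CD3 and α chain UMIs but many of Trbc1 and Trdc. A CD3 UMI was present in 9 of 94 NK cells (9.57%, 4.47 to 17.4), in 2.15% after thinning to 1000 UMIs and in 16.3% of 215 NK cells when Cd28 and Ms4a4b were left out of the T panel. Cd3d was seen in 4.26%, Cd3e in 1.06%, Cd3g in 6.38% and Trac in 3.19% of them. In contrast, Trbc1 was seen in 66 of 94 (70.2%, 59.9 to 79.2), at 545, 512 and 565 CPM in libraries 1, 3 and 4. The Poisson intervals of the 3 libraries overlapped, and over all libraries the level was 544 CPM beside 764 CPM in T cells (log2 T over NK 0.49, 0.30 to 0.68). The single NK cell of library 2 had none.

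Trbc2 was at 119 CPM in NK cells beside 1087 CPM in T cells (log2 3.19, 2.79 to 3.58). Trbc1 thus took 82.0% of the Trbc UMIs of NK cells (77.1 to 86.3), beside 41.3% in T cells. Of the 94 NK cells, 63 held Trbc1 without Trac (67.0%) and 61 held Trbc1 without any CD3 UMI (64.9%), beside 1.80% of T cells for the latter. In gates that should lack it, Trbc1 ran from 0.960 CPM in fibroblasts (2.36% of cells, at a median of 28718.0 UMIs beside 3899.5 in NK cells) to 10.4 CPM in basophils and mast cells (2.63%). It was at 0.975 CPM in neutrophils (0.365%), 1.74 CPM in macrophages (1.08%) and 3.68 CPM in tumour or epithelial cells (4.95%), and had no UMI in B cells.

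Trdc, the δ constant gene (chr14:54142851-54148868), was seen in 49 of 94 NK cells (52.1%, 41.6 to 62.5), at 122, 337 and 285 CPM in libraries 1, 3 and 4. Library 1 was lower than both others, with an interval (75.3 to 186) under theirs. In T cells the level was 21.9 CPM, a log2 ratio T over NK of -3.39 (-3.79 to -2.98). Both Trdc and Trbc1 were present in 35 NK cells (37.2%). Tcrg-C1, the γ constant gene at chr13:19214103-19217024, was seen in 1 of 94. After thinning to 1000 UMIs, 38.7% of NK cells had a Trbc1 UMI and 18.3% a Trdc UMI. When 1 panel gene sufficed for the T and NK gates, so that most of the former NK cells no longer counted as NK alone, the NK gate held 140 cells, of which 7.86% had Trbc1 and 2.86% had Trdc.

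Of the shared signalling genes, Lat was far lower in NK cells than in T cells, and Cd247 less so. Cd247 was at 62.0 CPM in NK cells and in 25.5% of them, a log2 ratio NK over T of -0.64 (-1.20 to -0.08). Without library 4 it was -1.22 (-2.12 to -0.31), and the interval spanned 0 without library 1 (-0.46, -1.08 to 0.17), without library 3 (-0.42, -1.06 to 0.21) and with the cells of both gates counted as T (-0.54, -1.10 to 0.02). Lat was at 32.1 CPM and in 12.8% of NK cells, a log2 ratio of -3.50 (-4.26 to -2.74). Cells that passed both gates had a CD3 UMI in 31.0% (25 of 50 in library 1, 6 of 17 in library 3 and 12 of 71 in library 4) and a Trdc UMI in 49.3%, both between the shares of T and NK cells. Trbc1 was seen in 84.5% of them, above both.

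**Figure D4:**
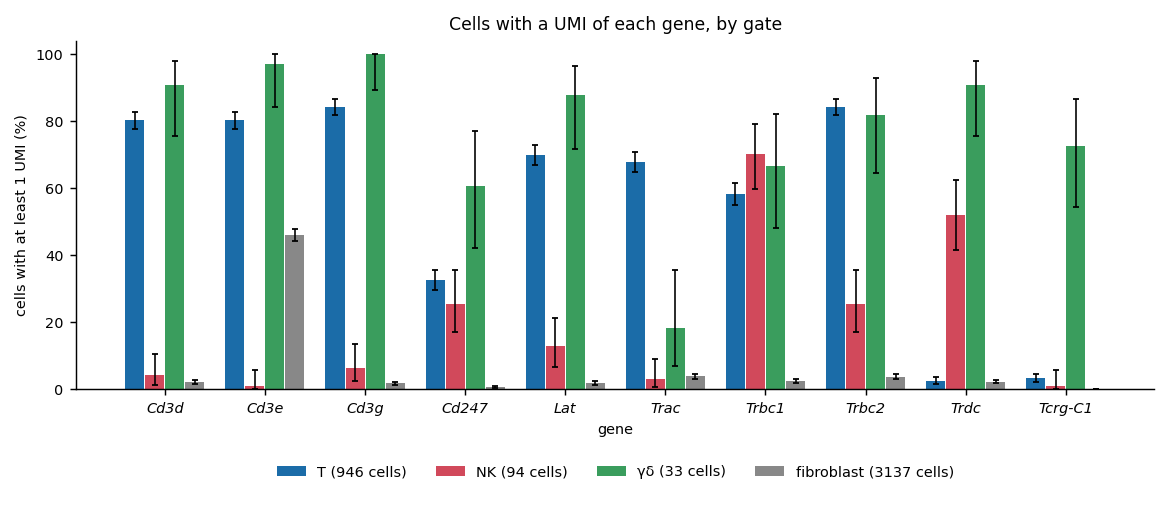
Percent of cells with at least 1 UMI (vertical axis) of each of the 10 genes (horizontal axis) in T, NK and γδ cells and fibroblasts, with exact 95% binomial intervals. NK cells reach 70.2% for Trbc1 and 52.1% for Trdc but reach at most 6.38% for Cd3d, Cd3e, Cd3g and Trac, and fibroblasts reach 45.9% for Cd3e.

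Trdc was not detected in the 647 T cells of the CD8, CD4 and Foxp3 subsets, which allows a share of up to 0.464%. The Foxp3 subset needed no Cd4 UMI, and the γδ gate was filled before the T gate. None of the 12 T cells with a UMI of Cd8a or Cd8b1 beside one of Cd4 or Foxp3 had a Trdc UMI either. Among the 287 T cells with a UMI of none of these genes, 23 had one of Trdc (8.01%), of which 20 had no Trac UMI. With 3 panel genes required for a gate, or with no exclusion panel, 2 cells of the CD8, CD4 and Foxp3 subsets had a Trdc UMI. In the γδ gate, 30 of 33 cells had a Trdc UMI, at 3482, 931 and 1362 CPM in libraries 1, 3 and 4, and library 1 was the highest. Over all libraries the level was 2359 CPM, a log2 ratio over NK cells of 3.36 (3.04 to 3.68), or 1.85 (1.39 to 2.31) without library 1. The δ variable segment Trdv4, a gate gene, can lie in the same transcript as Trdc, so that the gate and the readout are not fully independent. With Trdv4 and Tcrg-V6 left out of the panel, the γδ gate held 31 cells and the log2 ratio over NK cells was 3.34 (3.02 to 3.67).

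The γδ cells also carried CD3 transcripts. Every one of the 33 cells had a CD3 UMI, and Cd3g was at 2218 CPM beside 1173 CPM in T cells (log2 0.92, 0.76 to 1.08), Cd247 at 218 beside 96.5 CPM (1.18, 0.65 to 1.70, although 93.1 beside 121 CPM in library 3) and Lat at 563 beside 364 CPM (0.63, 0.31 to 0.95). Cd3d was level, at 711 beside 716 CPM (-0.01, -0.29 to 0.28). Trac was seen in 6 cells and was at 63.4 CPM (log2 -2.68, -3.62 to -1.73), whereas Trbc1 was seen in 22 and Trbc2 in 27. Tcrg-C1 was seen in 24 cells at 514 CPM beside 10.1 CPM in T cells, and 22 cells held both Tcrg-C1 and Trdc.

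The γ constant genes also appeared in CD8 cells. Tcrg-C1 had 16 UMIs in CD8 cells (13.1 CPM), all in library 1, and 5 in CD4 Foxp3-negative cells (3.30 CPM), a log2 ratio of 1.99 (0.54 to 3.43). Within library 1 it was no higher in CD8 cells, at 13.7 CPM (7.85 to 22.3) beside 25.0 CPM (5.16 to 73.1) from 3 UMIs in 30 CD4 Foxp3-negative cells. Its relative Tcrg-C2, 94.1% identical over the transcript with 1.80% of windows of 90 bases shared, was more common, with a UMI in 66 of the 209 CD8 cells of library 1 (31.6%, 25.3 to 38.3) at 167 CPM, and in 0 of the 30 CD4 Foxp3-negative cells of the same library, which allows a share of up to 10.0%. None of the 297 CD4 Foxp3-negative cells of all libraries had one. The 19 CD8 cells of the other libraries had no Tcrg-C2 UMI. Tcrg-C4 was seen in 28 CD8 cells (12.3%) and Tcrg-C3 had 0 UMIs in all cells. In T cells with Mki67 or Top2a, Tcrg-C2 was at 75.7 beside 28.6 CPM in the others (log2 1.40, 1.00 to 1.81). Library 1 held 200 of the 213 Tcrg-C2 UMIs of T cells, and also 112 of the 237 cells with Mki67 or Top2a. Within library 1 the levels were 149 and 81.3 CPM, a smaller log2 ratio of 0.87 (0.45 to 1.29).

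The variable segments were sparsely counted. In T cells, 6.87% had a UMI of a Trav gene, 5.18% of a Trbv gene, 1.06% of a Trdv gene and 4.97% of a Tcrg-V gene. The leading genes were Trav16n and Trav3-3 with 8 UMIs each and Trav8d-2 with 6, Trbv12-2 with 15, Trbv19 with 10 and Trbv2 with 7, Trdv4 with 8, Trdv5 with 3 and Trdv1 with 1, and Trgv2 with 68, Tcrg-V1 with 3 and Tcrg-V4 with 1. Of the Trgv2 UMIs, 60 were in library 1, and a Tcrg-V UMI was present in 15.4% of CD8 cells (10.9 to 20.7) and 0.337% of CD4 Foxp3-negative cells (0.00852 to 1.86). In γδ cells, 39.4% had a Trdv UMI and none a Trav or Trbv UMI. Trdv4, a gene of the γδ gate, held 21 of the 22 Trdv UMIs there. The Trdv share is thus partly set by the gate and is no independent readout.

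Cd3e was the exception among the CD3 genes, since most of its UMIs lay in fibroblasts. Of 25011 Cd3e UMIs in kept cells, 17324 (69.3%) were in the fibroblast gate and 12.3% in the lymphocyte gates. For Cd3d and Cd3g the fibroblast share was 1.27% and 0.820%, and over the other 9 genes it ran from 0.820% to 11.8%, the latter for Trdc. A Cd3e UMI was present in 1441 of 3137 fibroblasts (45.9%, 44.2 to 47.7), and in 12.0% after thinning to 1000 UMIs, beside 0.843% of neutrophils thinned alike.

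The level differed strongly between libraries. In fibroblasts, Cd3e was at 12.6, 333, 172 and 35.0 CPM in libraries 1 to 4, and was seen in 7.78%, 57.4%, 51.5% and 30.9% of the cells. Libraries 2 and 3 were high, library 4 was low and library 1, with 167 fibroblasts, was lowest, with no overlap between any pair of Poisson intervals. These intervals take every UMI as independent. The UMIs were concentrated in a subset of the cells, so that the intervals leave out the spread between cells and are too narrow. In T cells of the same libraries Cd3e ran from 573 to 645 CPM. Cd3d and Cd3g did not accompany it: over all fibroblasts they were at 0.722 and 0.712 CPM, in 2.17% and 1.75% of cells. Trac was at 1.59 CPM, Lat at 0.640 and Cd247 at 0.196.

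**Figure D5:**
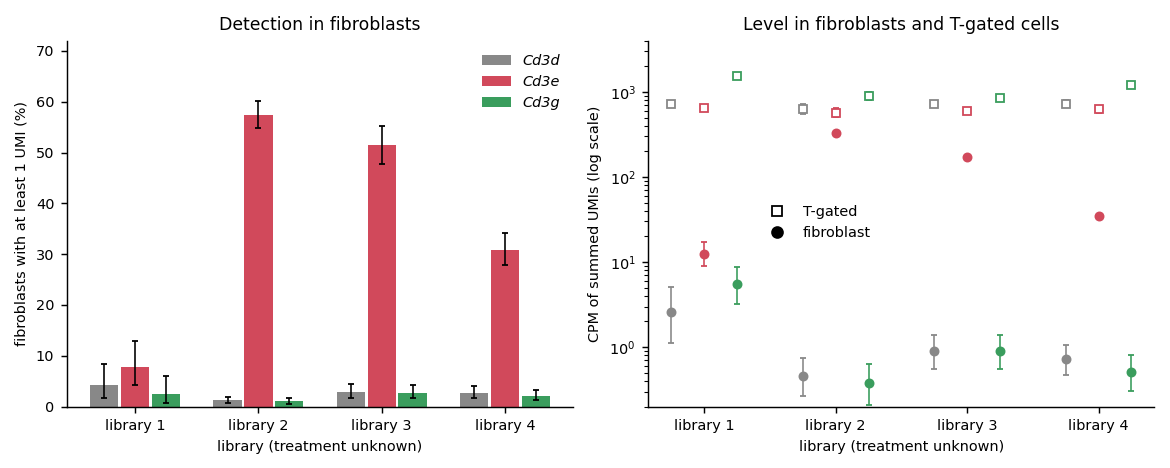
Left, percent of fibroblasts with at least 1 UMI of Cd3d, Cd3e and Cd3g in each library, with exact 95% binomial intervals. Right, CPM (log scale) of the same genes in T cells (open squares) and fibroblasts (filled circles) of each library, with Poisson intervals, where Cd3e of fibroblasts is at 333 CPM in library 2 and 12.6 CPM in library 1 while Cd3d and Cd3g of fibroblasts are at most 5.50 CPM.

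The UMIs were concentrated in a subset of the fibroblasts. There were 718 fibroblasts with 5 or more Cd3e UMIs (3, 434, 194 and 87 in libraries 1 to 4), which held 92.6% of the gate's Cd3e UMIs, and 160 with 30 or more. The highest cell had 246, beside a maximum of 20 in T cells. Of the 718, 26 had a UMI of Cd3d or Cd3g and 80 had a UMI of any gene of the T panel. Every one of the 224 T cells with 5 or more Cd3e UMIs had a UMI of Cd3d or Cd3g. Cells with enough T panel genes for the T gate were taken out before the fibroblast gate was filled. The T panel count is thus limited by the gating and cannot show whether these fibroblasts held T cell RNA. The same rule can lower the count for Cd3d or Cd3g. Over all 3137 fibroblasts, 120 had a UMI of Cd3d or Cd3g (3.83%, 3.18 to 4.56). Neither count was compared with fibroblasts without Cd3e alone. The 718 cells held a median of 32492.5 UMIs, beside 25830.0 in fibroblasts without Cd3e.

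Few genes moved with Cd3e in the fibroblasts. Between cells with 5 or more and cells with 0 Cd3e UMIs, the share of genes at least 2-fold higher was 0.351%, 0.315% and 0.203% in libraries 2, 3 and 4, and at least 2-fold lower 0.541%, 0.637% and 0.133%. In all 3 libraries together, 3 of 12781 genes were higher (0.0235%) and 2 were lower. Those higher were Gm48720, Lsmem1 and Tmem88, and those lower were Prg4, which encodes the joint lubricant lubricin, and Cilp, a cartilage matrix protein. Lsmem1 was at 138 beside 21.4 CPM in library 2, 72.6 beside 12.6 in library 3 and 30.6 beside 9.17 in library 4. Prg4 was at 379 beside 801, 83.8 beside 229.9 and 99.7 beside 239 CPM. These cells were chosen by their Cd3e count, and the genes were named after their values were seen.

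Gm48720 is a transcript annotated with a single exon that lies on the strand of Cd3e, at chr9:45008142-45009347, inside the intron of Cd3e that follows its second exon (chr9:45009348-45009449). Reads of Gm48720 and reads of Cd3e RNA that still holds this intron cannot be told apart. It had 1538 UMIs in fibroblasts and 50 in T cells. It thus made up 8.15% of the joint UMIs of both genes in fibroblasts (7.77 to 8.55) and 1.77% in T cells (1.32 to 2.33). By library, it made up 4.88%, 8.03%, 7.14% and 12.5% in fibroblasts and 1.57%, 0.840%, 1.85% and 2.70% in T cells, with intervals apart in libraries 2, 3 and 4. The antisense gene Gm48719 had 9 UMIs in all kept cells.

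Cd3e was also counted in other gates. It was at 2.74 to 24.7 CPM in macrophages, highest in library 3, and at 1.70, 12.0, 32.6 and 3.09 CPM in the neutrophils of libraries 1 to 4. Set against Col1a1, the main fibroblast transcript, there were 23.2 Cd3e UMIs per 1000 Col1a1 UMIs in fibroblasts, 57.2 in neutrophils, 40.7 in macrophages and 40.9 in tumour cells. In library 3 the ratios were 30.1 in fibroblasts, 105 in neutrophils and 119 in macrophages, and in library 1 they were 1.19 in fibroblasts and 51.6 in tumour cells. The ratio was thus not the same in every gate. The fibroblast gate required Col1a1 UMIs, and the other gates were filled after it. The ratio of fibroblasts therefore cannot be compared with those of the other gates on equal terms. The part of free RNA and of doublets in these counts was not tested.

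Basophils and mast cells were another gate with Cd3e and without its partners. Of 114 cells, 31 had a Cd3e UMI (27.2%, 19.3 to 36.3), with levels of 11.0, 147, 97.0 and 173 CPM in libraries 1 to 4. The low library was again library 1. Cd3d had 2 UMIs and Cd3g none. The highest cell held 29 Cd3e UMIs. Lat, which these cells use below the IgE receptor, was also seen in 31 of 114 (27.2%) at 31.7 CPM. It was seen in 15 of the 29 cells with 3 or more mast protease UMIs (51.7%) and in 18.8% of the other 85.

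Cd3d had a trace of its own in neutrophils. It was seen in 306 of 8208 (3.73%, 3.33 to 4.16), at 11.9, 8.40, 7.69 and 9.41 CPM in libraries 1 to 4, beside 1.31 CPM in macrophages. The log2 ratio over macrophages was 2.20, 2.66, 2.11 and 3.24 in the 4 libraries, above 0 with its whole interval in each. Cd3g was at 1.11 CPM in neutrophils and 1.74 CPM in macrophages. With 2 or more UMIs required, 0.219% of neutrophils remained, so that most of the cells held a single Cd3d UMI.

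The pattern of Cd3e over gates and libraries showed the same split. Over 32 sums of at least 20 cells each, which share libraries and differ in depth, Pearson's r of log2(CPM + 10) was 0.980 between Cd3g and Cd3d and 0.984 between Cd3g and Trac, but 0.784 between Cd3e and Cd3g and 0.770 between Cd3e and Cd3d. Without the fibroblast sums, 28 points, the latter were 0.854 and 0.846. The genes outside the 10 with the highest r to Cd3e were Aebp2 (0.840), Plcg1 (0.830), Cish (0.823), Bdh1 (0.818) and Irf4 (0.812). These values are descriptions without a test.

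The genes that signal below the receptor were less restricted than the receptor itself. From a list of 40 TCR signalling genes, 37 were outside the T panel. Of these, 31 were at least 2-fold higher in T cells than in fibroblasts (background 10.3%), with a median log2 ratio of 2.75, but many signalling genes serve all leucocytes. The number at least 2-fold lower was 0, but no background share was computed for that direction, so that this count cannot be judged. Against NK cells, 7 were higher (background 9.37%) and 3 lower (background 2.91%), with a median of 0.13.

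At the T cell end were Sit1 (40.8 CPM in T and no UMI in NK cells), an inhibitory transmembrane adaptor, Grap2 (144 and 13.8 CPM), the adaptor that links Lat to Lcp2, Plcg1 (46.8 and 2.29 CPM), the phospholipase that Lat recruits, and Sla (127 and 39.0 CPM). At the NK end were the kinase Txk (73.2 CPM in T and 452 CPM in NK cells), Dok2 (122 and 321 CPM), Ptprc (772 and 1452 CPM) and Nfatc1 (62.0 and 110.1 CPM). Lat, Grap2 and Plcg1 were lower in NK cells than in T cells, with 14, 6 and 1 UMIs in NK cells. Grap2 and Plcg1 were named because they lay at the T cell end of the list. Of the same list, Grb2, Nck1 and Vav1 had log2 ratios T over NK of 0.44, 0.13 and -0.34.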

How the data were processed

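Single cells from 4 tumour samples were profiled by 10x Genomics sequencing. The authors deposited 1 matrix of UMI counts (unit counts, whole numbers, not normalised) for 55450 genes and 33064 barcodes. Cell Ranger is named with version 2.1.1 and the build mm10 in the submitters' processing notes, and version 6.1.2 stands in the header of the matrix. Gene identifiers matched GENCODE vM21 (GRCm38). No per-sample column was left unmapped.

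Barcodes were kept at 300 genes or more and 15% mitochondrial UMIs or less, which removed 931. The 10 genes, the gates and the lists were chosen with earlier results of these data known. A gate needed 2 panel genes (3 for tumour cells), and lymphocytes with 3 genes of a myeloid or stromal panel were set apart as mixed (413 cells). Doublets were kept. Named genes were the 10 members, the other Tcrg-C genes, 5 signalling genes at each end of the T over NK ratio (1 at each end is not reported here), the 5 genes most like Cd3e, the genes that show a gate, and the 3 leading genes of each variable family.

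Shares carry exact Clopper-Pearson 95% intervals and levels exact Poisson intervals. Log2 ratios are of CPM with Poisson standard errors, given where both gates had at least 20 cells and enough UMIs. A share of 0 is given with the limit that 3 counts allow. Fold calls used genes with 20 or more UMIs over both sides together, 5 CPM added to each side and a 2-fold limit. Thinning drew 1000 UMIs per cell and left out 1890 kept cells with fewer. Alternatives were other barcode limits, other gate rules, thinning, 2 UMIs for detection, removal of the highest 5% of Scrublet scores per library (1606 cells) and each library left out. On simulated data for T against NK cells (10598 genes), 100.0% of 200 changed genes were called at every simulated fold size, and 2.69% of unchanged ones. The simulated folds all lay well above the 2-fold limit and the noise was Poisson only, so that calls near the limit were not tried. Changed genes were drawn only from those at 20 CPM or more over both gates together, so that sparser genes were not tried either. Tools were Python 3.11.15, numpy 2.4.6, scipy 1.17.1, pandas 2.3.3, scanpy 1.11.5 and matplotlib 3.10.9.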

Additional observations from a re-analysis of the deposited data

How the results depend on the processing

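Of 231 values recomputed for 16 results, 172 were rated the same, 58 moved and 1 turned its direction, judged by the counting interval where there was one. Counts of genes or of cells had no such interval. The number of signalling genes higher in T cells than in fibroblasts (31 of 37) was rated the same throughout. It was 26 with 1 panel gene, 24 with no exclusion panel and 28 to 32 with a library left out. The cause of these moves was not tested. Results on Cd3e in fibroblasts, Trbc1 and Trdc in NK cells and Trdc in the CD8, CD4 and Foxp3 subsets were added after the data were seen. So were those on Cd3g in CD8 cells and Cd3d in neutrophils, a T panel without Cd28 and Ms4a4b, and a γδ panel without Trdv4 and Tcrg-V6. The share of T cells with a CD3 UMI (94.5%) was 96.7% with 3 panel genes, 70.5% with 1, 88.2% with no exclusion panel, 86.2% with T and NK double cells counted as T, 85.1% thinned to 1000 UMIs, 89.3% with 2 UMIs required and 97.0% without Cd28 and Ms4a4b. For the αβ constant genes (95.1%) it was 97.1% with 3 panel genes, 70.7% with 1, 87.8% with no exclusion, 82.6% thinned, 87.4% with 2 UMIs and 96.5% without Cd28 and Ms4a4b. CD3 in NK cells (9.57%) was 2.15% thinned, 3.19% with 2 UMIs, 14.2% with 3 panel genes and 16.3% without Cd28 and Ms4a4b. The share of T cells with both Trbc genes (69.1%) was 64.3% thinned, 54.3% with 2 UMIs and 62.9% to 71.7% with a library left out. The Trbc1 part (41.3%) was 39.6% with 1 panel gene, 40.1% with no exclusion, 42.5% with double cells as T and 38.1% to 42.7% with a library left out. The log2 ratio NK over T of Cd247 (-0.64) was -5.83 with 1 panel gene, -1.23 with exclusion at 2 genes, -1.52 thinned and -1.22 to -0.42 with a library left out (spanning 0 without library 1 or 3, as with double cells as T), and that of Lat (-3.50) was -6.14 with 1 panel gene and -5.19 thinned. Trdc in γδ over NK cells (3.36) was 3.85 with 3 panel genes, 10.16 with 1, 2.87 with no exclusion, 3.81 thinned and 1.85 to 3.84 with a library left out. Cd3e in fibroblasts (45.9%) was 12.0% thinned, 33.1% with 2 UMIs, 58.1% with Col1a1 at 1% of UMIs or more and 36.9% to 51.9% with a library left out. In NK cells, Trbc1 (70.2%) was 7.86% with 1 panel gene, 38.7% thinned and 57.4% with 2 UMIs, and Trdc (52.1%) was 2.86%, 18.3% and 20.2%. T cells of the CD8, CD4 and Foxp3 subsets with Trdc (0) were 2 with 3 panel genes and 2 with no exclusion. The Cd3g ratio CD8 over CD4 (0.83) was 0.57 with 1 panel gene, 0.41 with no exclusion and -0.19 to 1.02 with a library left out, the lowest without library 1. Cd3d in neutrophils (3.73%) was 1.72% thinned, 0.219% with 2 UMIs and 3.29% to 4.29% with a library left out. The interval of the Tcrg-C1 ratio CD8 over CD4 (1.99) spanned 0 thinned (1.39) and without library 3 (1.68), and without library 1 there was no value, as no CD8 UMI was left.

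No paired analysis was possible because the barcodes are not linked to samples. The libraries may differ in treatment, mouse and depth together, so that differences between them cannot be assigned, and small gates (94 NK, 33 γδ and 26 B cells) leave wide intervals.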
